A study of Mus musculus with 16 samples.

Results

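The genes described here are 10 of the 45513 genes counted in the series, chosen by name for their place in zinc handling. They are the metallothionein genes *Mt1* and *Mt2*, the exporter gene of the cell surface *Slc30a1*, the exporter genes of vesicles and the Golgi *Slc30a2*, *Slc30a4*, *Slc30a5* and *Slc30a7*, the surface uptake genes *Slc39a4* and *Slc39a5*, and *Slc39a7*, whose product releases zinc from the endoplasmic reticulum. All 10 were among the 15323 genes that passed the filter on low counts. The 16 RNA libraries came from small intestinal epithelium of 8 mice, sorted by the epithelial surface protein EpCAM, and each mouse gave 1 library of live EpCAM+tdTom+ cells and 1 of live EpCAM+tdTom- cells. By the methods of the study, the cells came from crypt-enriched fractions of the proximal small intestine, and the villus-enriched fraction was left out. Neither fraction therefore stands for the whole epithelium. All mice were Atoh1(WT)CreERT2 R26RtdTom animals on a C57BL/6 background, homozygous for the *Atoh1* allele and with 1 copy of the reporter, of both sexes and 8 to 16 weeks old. In these mice a tamoxifen-inducible recombinase, CreERT2, is made from the *Atoh1* locus, which is active in secretory precursors. It switches on the red reporter tdTomato (tdTom) for good, so tdTom+ marks cells that made *Atoh1* and their progeny. Per the labels, every animal had been given tamoxifen at 1 mg a day for 3 days. The study states the same schedule for the mice behind its secretory signature, which compared tdTom+ with tdTom- cells. Its general sequencing methods, which name EpCAM+tdTom+ cells, give 1 injection the day before the sort. There was no untreated group, and both fractions came from tamoxifen-treated mice.

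Zinc is moved across membranes by 2 transporter families. Proteins of the Slc30a (ZnT) family carry zinc out of the cytosol, either out of the cell or into vesicles, Golgi and granules. Those of the Slc39a (ZIP) family bring it into the cytosol from outside the cell or from organelles. Metallothioneins are small cysteine-rich proteins that bind zinc in the cytosol, and their genes are switched on by the zinc-sensing transcription factor encoded by *Mtf1*. In the small intestine, absorptive enterocytes take up dietary zinc, and Paneth cells, secretory cells of the crypt base, hold zinc in their granules beside the antimicrobial proteins.

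Library totals ranged from 17116405 to 25323567 assigned reads. In the direction of the labels, *Atoh1* averaged 62.5 ± 12.7 CPM over the tdTom+ libraries but 0.718 ± 0.247 CPM over the tdTom- libraries (SD, n = 8 each). CPM are read counts scaled to a common library size, here with TMM factors, which also adjust for composition. All 8 Paneth and all 8 goblet markers examined were higher in tdTom+, and all 8 absorptive markers were lower. Summed Paneth markers ranged from 52683 to 139451 CPM in tdTom+ and from 405 to 595 CPM in tdTom-. Summed goblet markers ranged from 128104 to 264225 CPM in tdTom+ and from 952 to 1511 CPM in tdTom-. Summed absorptive markers ranged from 1563 to 6021 CPM in tdTom+ and from 14550 to 38346 CPM in tdTom-, with mouse 7 lowest in both fractions. Among 8 immune markers, 7 were tested, of which 1 was higher (*Lyz2*, whose sequence is close to that of the Paneth gene *Lyz1*) and 5 were lower. The tdTom+ fraction was thus a mixture of secretory cells and not a pure Paneth cell sample. In bulk RNA, fewer cells of a type and less RNA per cell cannot be told apart.

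Of the 10 genes, 8 were lower and 2 were higher in tdTom+ than in tdTom- cells. Here and below, a gene is called higher or lower when its adjusted p in edgeR's quasi-likelihood test, with the mouse as a block, is under 0.01 over all genes tested. Of all 15323 genes tested, 30% were called lower, 25.8% higher and 55.8% in either direction. The median log2 fold change of the 10 genes was -0.74, beside 0.02 over all genes. For 7 of the 10 genes the 8 tdTom+ values did not overlap with the 8 tdTom- values, as for 31.6% of all genes tested. They lay wholly above for 2 of the 10 genes (14.6% of all genes) and wholly below for 5 (17%). *Slc30a7* and *Slc39a7* were the higher genes. Mt1, Mt2 and the remaining exporter and uptake genes were lower, and *Mt2* and *Slc30a4* were close to the threshold.

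**Figure D1:**
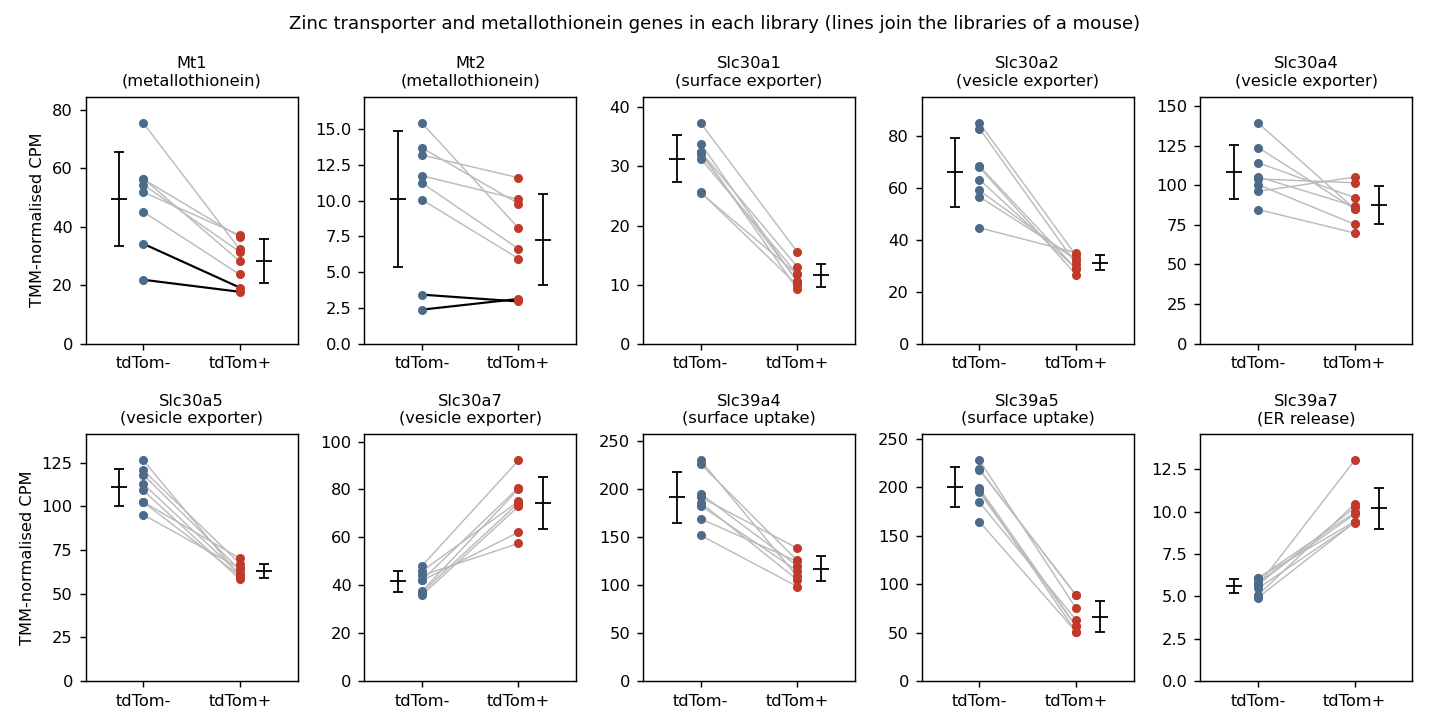
TMM-normalised CPM (vertical axes, from 0) of the 10 genes in the tdTom- (blue) and tdTom+ (red) library of each of 8 mice, joined by a line per mouse, with the mean ± SD of 8 beside each fraction. *Slc30a7* and *Slc39a7* rise in 8 of 8 mice, and the black lines in the *Mt1* and *Mt2* panels mark mice 3 and 4, which have the lowest values of both genes.

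*Mt1* and *Mt2* lie next to each other on chromosome 8, *Mt2* at chr8:94172618-94173567 and *Mt1* at chr8:94179089-94180325 (GRCm38, + strand), with 5521 bases between them. Their coding sequences are shown because the cysteine codons carry the metal-binding residues, and because reads of such alike genes could be confused. They are the spliced coding parts of 3 exons each (GENCODE M21), spanning chr8:94179311-94180193 for *Mt1* and chr8:94172848-94173427 for *Mt2*, with cysteine codons in capitals.
Mt1: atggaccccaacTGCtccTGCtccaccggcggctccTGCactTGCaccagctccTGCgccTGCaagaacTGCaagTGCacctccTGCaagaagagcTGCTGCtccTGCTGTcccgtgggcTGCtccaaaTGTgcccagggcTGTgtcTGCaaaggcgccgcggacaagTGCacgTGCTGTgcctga
Mt2: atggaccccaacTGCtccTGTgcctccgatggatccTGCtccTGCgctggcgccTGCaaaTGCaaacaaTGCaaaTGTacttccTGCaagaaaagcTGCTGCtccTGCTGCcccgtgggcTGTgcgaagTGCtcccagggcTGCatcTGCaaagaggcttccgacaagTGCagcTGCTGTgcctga
Each holds 61 codons before the stop, of which 20 encode cysteine, and all 20 stand at the same place in both genes. Of 186 coding bases, 148 (79.6%) are the same. The longest identical run is 20 bases, shorter than the 50-base reads, and no stretch of 50 bases of either gene's transcripts occurs in the transcripts of another gene, so their counts do not share reads.

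Both metallothionein genes were lower in tdTom+ cells. *Mt1* had its lowest, median and highest tdTom+ values at 17.7, 29.8 and 37.1 CPM and its tdTom- values at 21.8, 53.1 and 75.4 CPM. The 2 fractions overlapped, but within each of the 8 mice the tdTom+ value was the lower one. The means of *Mt1* were 28.2 ± 7.44 and 49.4 ± 16.1 CPM in turn (SD, n = 8 each), and the log2 fold change came to -0.78 ± 0.09 (SE; edgeR adjusted p = 3.36e-06). *Mt2*, the less abundant gene, ranged over 2.94, 7.35 and 11.6 CPM in tdTom+ and over 2.37, 11.5 and 15.4 CPM in tdTom- (lowest, median and highest). It was lower in tdTom+ in 7 of 8 mice, and mouse 3 was the exception, with 49 reads in each library (3.12 CPM in tdTom+ and 2.37 CPM in tdTom-). Its log2 fold change was -0.44 ± 0.12 (SE; edgeR adjusted p = 0.00634). Without the replicate block the value was -0.47 and the call was lost (edgeR adjusted p = 0.263). It was also lost without mouse 1, 2, 7 or 8, with edgeR adjusted p between 0.0146 and 0.0223.

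The spread of *Mt2* came largely from 2 animals, mice 3 and 4. These had 3.12 and 2.94 CPM in tdTom+ and 2.37 and 3.42 CPM in tdTom-, while the other 6 mice had at least 5.94 CPM in tdTom+ and at least 10.1 CPM in tdTom-. The same 2 mice had the lowest *Mt1* in both fractions. Since they stand apart, no correlation over all mice is given for these genes. Over the other 6 mice, Pearson's r of log2 CPM between *Mt1* and *Mt2* was 0.855 in tdTom+ (exact two-sided permutation p = 0.0264) and 0.575 in tdTom- (exact two-sided permutation p = 0.215). Adjusted over the 4 relations examined in these libraries, these exact permutation p values were 0.0778 and 0.287. Per kb of exon, *Mt1* exceeded *Mt2* by a median ratio of 3.91 in tdTom+ (3.29 to 6.70) and 4.96 in tdTom- (3.77 to 10.3), ranges that overlapped. Metallothioneins also respond to stress. Of 8 genes of the dissociation response, 4 were higher in tdTom+ (*Fos*, *Fosb*, *Egr1* and *Atf3*) and none lower, against 25.8% and 30% of all genes tested. The summed level of the 8 was 1759 to 4218 CPM in tdTom+ and 1596 to 2848 CPM in tdTom-, with none of them at 0 in every library. The part of this response in the metallothionein values was not tested.

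**Figure D2:**
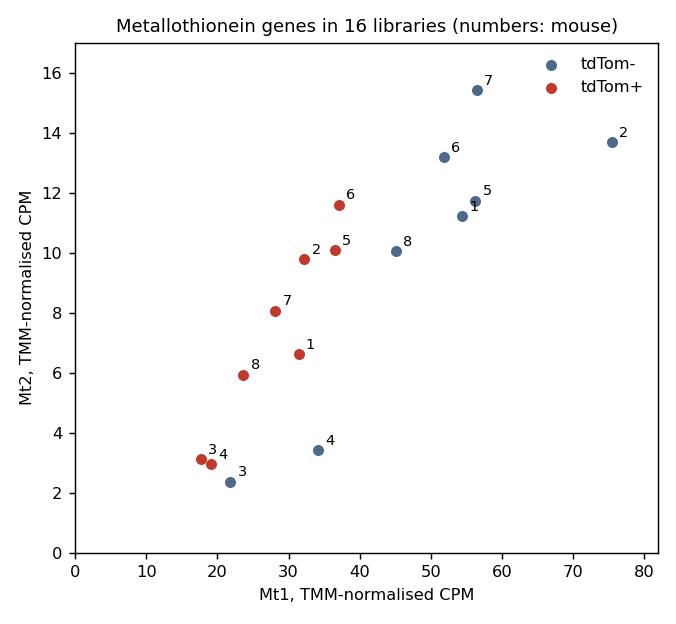
*Mt1* against *Mt2*, both in TMM-normalised CPM on linear axes from 0, with 1 point per library (blue tdTom-, red tdTom+) and the mouse number beside it. Mice 3 and 4 lie at the lower left in both fractions, and *Mt2* is at most 3.42 CPM in their 4 libraries.

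The remaining metallothionein genes, *Mt3* and *Mt4*, were scarce. *Mt3* had 7 to 26 reads in every tdTom+ library and 0 or 1 in every tdTom- library, so its fractions did not overlap, but it fell below the filter on low counts and was not tested. *Mt4* had at most 4 reads in any library. *Mtf1*, the gene of the zinc-sensing factor, was lower in the tdTom+ library of all 8 mice, with 17.6 ± 1.36 against 34.0 ± 5.05 CPM (SD, n = 8 each; log2 fold change -0.95 ± 0.06, SE; edgeR adjusted p = 1.12e-08).

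The zinc-sensing factor binds metal response elements, short sequences with a conserved core. The letters TGCACNC and TGCGCNC were searched on both strands of the 300 bases around 1 RefSeq start site per gene (250 before and 50 after, GRCm38.p6). Where a gene had several start sites, only the first listed was used. A promoter was in the table for 9 of the 10 genes, all but *Slc39a4*. At least 1 match was present in 7 of the 9 and at least 3 in 3 of the 9, against 25.6% and 2% of 27025 promoters. *Mt2* had 4 matches, *Mt1* and *Slc30a4* had 3 each, *Slc30a1* and *Slc30a2* had 2 each, *Slc30a5* and *Slc39a5* had 1 each, and *Slc30a7* and *Slc39a7* had none. Of the 16 other zinc genes with a promoter in the table, 7 had a match. These included *Slc30a10* (3 matches), which was lower in tdTom+, and *Slc39a11* and *Slc39a13* (1 each), which were higher, while *Slc30a6*, *Slc30a9*, *Slc39a9* and *Mtf1*, all lower, had none. The matches of *Mt1*, *Mt2* and *Slc30a1*, the best known targets of the factor, are shown on the + strand with the core, or its reverse complement, in capitals and 5 bases on either side.
Mt1, chr8:94179061-94179077: cgctgTGCACACtggcg
Mt1, chr8:94179086-94179102: agctcTGCACTCcgccc
Mt1, chr8:94179104-94179120: aaaagTGCGCTCggctc
Mt2, chr8:94172390-94172406: gcctcTGCACCCggccc
Mt2, chr8:94172485-94172501: cccttTGCGCTCagctc
Mt2, chr8:94172563-94172579: agggcGTGTGCAggctc
Mt2, chr8:94172617-94172633: gggtcGTGCGCAggccc
Slc30a1, chr1:191906733-191906749: gttccGAGTGCAaagca
Slc30a1, chr1:191906806-191906822: gggccGAGCGCAgtcgc
A match is a run of letters and not a measured binding site. The windows of *Mt1* and *Mt2* ended at chr8:94179138 and chr8:94172667, ahead of the start codons at chr8:94179311 and chr8:94172848. The bases between were not searched, so matches near a later start would be missed. All 3 genes shown were lower in tdTom+.

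*Slc30a1* (chr1:191906767-191913247, + strand) encodes the zinc exporter of the cell surface. It lay at 9.23, 11.2 and 15.5 CPM in tdTom+ and at 25.5, 32.3 and 37.4 CPM in tdTom- (lowest, median and highest of 8). Every tdTom+ value was below every tdTom- value. The log2 fold change was -1.44 ± 0.08 (SE; edgeR adjusted p = 1.80e-09), so that tdTom+ cells held 36.8% of the tdTom- level.

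The vesicle exporters did not move together. *Slc30a2*, *Slc30a4* and *Slc30a5* were lower in tdTom+ and *Slc30a7* was higher. *Slc30a2* (chr4:134343181-134354484, + strand) encodes ZnT2, a transporter of secretory vesicles that loads Paneth cell granules. Its values were 26.7, 31.6 and 35.1 CPM in tdTom+ and 44.7, 65.7 and 85.2 CPM in tdTom- (lowest, median and highest). No tdTom+ library reached the lowest tdTom- library. *Slc30a2* was thus lower in the fraction that held the Paneth markers, at a log2 fold change of -1.06 ± 0.11 (SE; edgeR adjusted p = 9.08e-07). The smallest difference was in mouse 7, at 35.1 against 44.7 CPM, the mouse whose tdTom- library had the fewest absorptive and the most stem cell marker reads. Without mouse 7 the log2 fold change was -1.16. Between mice, *Slc30a2* showed no detectable relation to the mean log2 level of the 8 Paneth markers in tdTom+. Pearson's r was 0.408 (exact two-sided permutation p = 0.325, n = 8) and Spearman's rho 0.333 (exact permutation p = 0.428), and adjusted over the 4 relations these p values were 0.325 and 0.428. Without mice 7 and 4, farthest from the median of the Paneth markers, r was -0.354 (exact permutation p = 0.515, n = 6).

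*Slc30a5* (chr13:100802649-100833427, - strand) encodes ZnT5, which works with ZnT6 to supply zinc to enzymes in the early secretory pathway. It lay at 58.3, 62.3 and 70.2 CPM in tdTom+ and at 95.1, 111 and 126 CPM in tdTom- (lowest, median and highest), without overlap (log2 fold change -0.81 ± 0.06, SE; edgeR adjusted p = 7.47e-08). *Slc30a6*, the gene of its partner, was lower by a smaller amount, at 17.1 ± 1.14 against 23.3 ± 3.96 CPM (SD, n = 8 each; log2 fold change -0.43 ± 0.07, SE; edgeR adjusted p = 0.00015). *Slc30a4* (chr2:122681233-122702663, - strand) encodes ZnT4, found in endosomes and secretory vesicles. At 69.9, 86.0 and 105 CPM in tdTom+ and 84.7, 105 and 139 CPM in tdTom- it had overlapping fractions, and it was lower in 7 of 8 mice, with mouse 8 the exception (105 against 96.2 CPM). Its log2 fold change of -0.30 ± 0.08 (SE; edgeR adjusted p = 0.00496) lost its call without mouse 1, 3, 4, 5 or 6 (edgeR adjusted p between 0.0115 and 0.0795), and without the replicate block (edgeR adjusted p = 0.0139).

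*Slc30a7* (chr3:115938973-116007406, - strand) encodes ZnT7, a Golgi transporter that also supplies zinc to secreted enzymes. It was the member of the Slc30a family that was higher in tdTom+, at 57.4, 74.7 and 92.1 CPM against 35.8, 42.0 and 48.1 CPM (lowest, median and highest). All tdTom+ values were above all tdTom- values (log2 fold change 0.83 ± 0.08, SE; edgeR adjusted p = 5.33e-07). Mice 5 and 6 had the lowest tdTom+ values, 57.4 and 62.1 CPM. As a share of the summed level per length of the 10 Slc30a genes, *Slc30a7* made up 10.1 ± 1.45% in tdTom+ and 3.50 ± 0.362% in tdTom- (SD, n = 8 each). The family as a whole summed to 66.4 ± 2.96 CPM per kb in tdTom+ and 108 ± 14.9 CPM per kb in tdTom-. *Slc30a5* stayed its largest part, at 29.9% and 32.6%, and *Slc30a2* made up 13.2% and 17.1%.

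The surface uptake genes were both lower in tdTom+. *Slc39a4* (chr15:76612385-76616852, - strand) encodes ZIP4, the transporter of the luminal surface whose loss in people causes the zinc deficiency acrodermatitis enteropathica. It lay at 98.3, 117 and 138 CPM in tdTom+ and at 152, 189 and 230 CPM in tdTom- (lowest, median and highest), with no overlap (log2 fold change -0.71 ± 0.07, SE; edgeR adjusted p = 8.96e-07). *Slc39a5* (chr10:128395934-128401224, - strand) encodes ZIP5, which sits on the opposite, basolateral side. With 50.9, 60.0 and 89.0 CPM in tdTom+ and 164, 198 and 228 CPM in tdTom-, it had the largest change of the 10 genes, a log2 fold change of -1.62 ± 0.08 (SE; edgeR adjusted p = 4.42e-10). Mice 5 and 6 had the highest tdTom+ levels, 88.6 and 89.0 CPM, the same animals that had the lowest *Slc30a7* in tdTom+. The tdTom+ cells held 32.5% of the tdTom- level of *Slc39a5* and 61.3% of that of *Slc39a4*. In the tdTom- libraries *Slc39a4* rose with the mean log2 level of the 8 absorptive markers (Pearson's r = 0.861, exact two-sided permutation p = 0.000521, adjusted over 4 relations 0.00144; Spearman's rho = 0.905, exact permutation p = 0.00456, adjusted 0.00608; n = 8). Without mice 7 and 8, farthest from the median, r was 0.796 (exact permutation p = 0.0389, adjusted 0.0778, n = 6), so the adjusted p was no longer under 0.05. Without mouse 7 alone, r was 0.869 (exact permutation p adjusted over 4 relations 0.0246).

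*Slc39a7* (chr17:34028267-34031690, - strand) encodes ZIP7, which lets zinc out of the endoplasmic reticulum and Golgi into the cytosol. Values of 9.34, 9.90 and 13.0 CPM in tdTom+ and 4.93, 5.67 and 6.08 CPM in tdTom- (lowest, median and highest) did not overlap, and it was higher in 8 of 8 mice (log2 fold change 0.86 ± 0.08, SE; edgeR adjusted p = 5.75e-07). Of its 2594 exon bases, 2078 (80.1%) also belong to the gene model *Gm20427* on the same strand, and reads that fall there were counted for neither gene. Its level is therefore understated, and the comparison rests on 98 to 260 reads per library.

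Between genes, levels can be compared only per length of exon. In tdTom+ cells *Slc39a4* and *Mt1* were highest, at 52.6 ± 5.74 and 52.3 ± 13.8 CPM per kb (SD, n = 8), with overlapping ranges. *Slc39a5* followed at 31.0 CPM per kb, *Slc30a5* at 19.9, *Slc30a4* at 16, *Mt2* at 13.1, *Slc30a2* at 8.76, *Slc30a7* at 6.69 and *Slc30a1* at 2.20 CPM per kb. Ranges of neighbours in this order overlapped, except between *Slc39a5* and *Slc30a5* and between *Slc30a7* and *Slc30a1*. In tdTom- cells *Slc39a5* (93.7 CPM per kb), *Mt1* (91.5) and *Slc39a4* (86.0) had the highest levels and overlapped. *Slc30a5* at 34.9 CPM per kb lay below all 3 and above *Slc30a4* (19.8), *Slc30a2* (18.5) and *Mt2* (18.2), which overlapped with each other. *Slc30a1* at 5.98 CPM per kb overlapped with *Mt2*, whereas *Slc30a7* at 3.74 CPM per kb lay apart from the gene above. *Slc30a1* thus stood above *Slc30a7* in tdTom- cells and below it in tdTom+ cells. *Slc39a7* was left out of this order, since its place depends on the length used. It stood at 3.93 and 2.16 CPM per kb of all its exons in tdTom+ and tdTom-, but at 19.8 ± 2.35 and 10.9 ± 0.82 CPM per kb of its 516 unshared bases (SD, n = 8 each). The lengths are those of all annotated exons, up to 11116 bases for *Slc30a7*, so a gene whose long exons are used in part has an understated level.

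**Figure D3:**
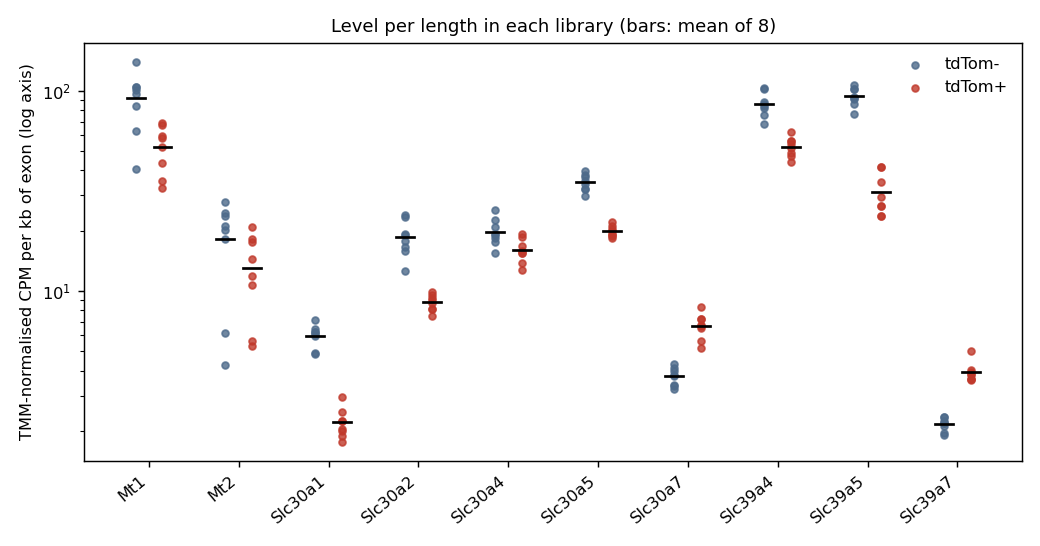
TMM-normalised CPM per kb of exon (log axis) of the 10 genes, with 1 point per library (blue tdTom-, red tdTom+; 8 each) and a bar at the mean. *Slc39a4*, *Slc39a5* and *Mt1* lie highest in both fractions, and *Slc30a7* and *Slc39a7* are the genes whose red points lie above the blue ones. *Slc39a7* is drawn per kb of all its exons, which understates its level.

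Exporters into vesicles and surface uptake genes were then set against each other within each library. The summed level of *Slc30a2*, *Slc30a4*, *Slc30a5* and *Slc30a7* was 51.3 ± 2.81 CPM per kb in tdTom+ and 76.9 ± 10.1 CPM per kb in tdTom- (SD, n = 8 each). That of *Slc39a4* and *Slc39a5* was 83.6 ± 10.3 and 180 ± 19.2 CPM per kb. The vesicle exporters made up 38.2 ± 2.82% of both sums in tdTom+ (33.0% to 42.1%) and 29.9 ± 1.42% in tdTom- (27.5% to 32.1%), and the fractions did not overlap. Within mice the difference was 8.26 ± 3.60 percentage points, from 2.48 in mouse 5 to 12.4 in mouse 7. Both sums were lower in tdTom+, the uptake sum by the larger factor. Without *Slc30a2* the shares were 33.9% and 24.5%, while in CPM without division by length they were 58.4% and 45.4%, a difference of 12.96 percentage points. *Slc39a7*, which acts inside the cell, was not counted among the uptake genes. With it on the uptake side the shares were 37.1% and 29.7% over all its exons. Over its 516 unshared exon bases, an alternative chosen after seeing the data, they were 33.3% (29.2% to 35.4%) and 28.7% (26.3% to 30.8%), so the fractions overlapped. The difference within mice then fell to 4.53 ± 2.97 percentage points and was positive in 7 of 8 mice, with mouse 5 at -0.194. Of the 13 Slc39a genes tested, 8 were higher in tdTom+ and 4 lower, and the uptake sum held only *Slc39a4* and *Slc39a5*, both lower. Left out of it were, among others, *Slc39a1* (41.6 ± 3.26 against 27.8 ± 2.56 CPM per kb) and *Slc39a14* (8.08 ± 0.357 against 19.0 ± 3.82 CPM per kb; SD, n = 8 each). Over the whole families, with *Slc39a7* over all its exons, it was the Slc30a sum that was lower by the larger factor. The 10 Slc30a genes summed to 66.4 CPM per kb in tdTom+ and 108 in tdTom-, the 14 Slc39a genes to 208 and 285. The share thus describes the chosen genes only, depends on that choice, also in its direction, and is given without a test.

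**Figure D4:**
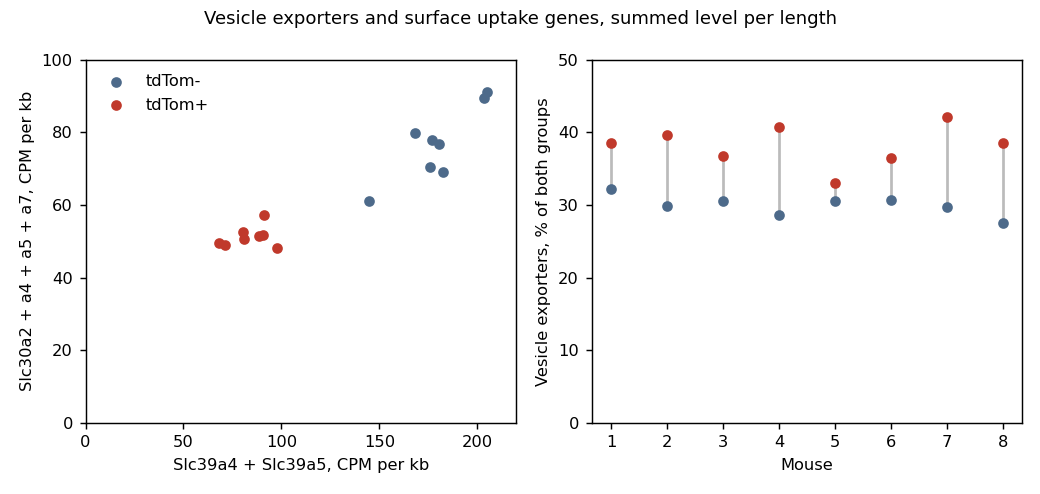
Left, summed level of the 4 vesicle exporter genes against that of *Slc39a4* and *Slc39a5*, both in CPM per kb from 0, with 1 point per library (blue tdTom-, red tdTom+). Right, the vesicle exporters as a percent of both sums in each mouse, where the tdTom+ point is the upper one in all 8 mice and mouse 5 has the smallest gap (2.48 percentage points).

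The other zinc genes numbered 19, of which 14 passed the filter, 7 were higher, 6 lower and 1 not called. For these and the family counts below, the shares over all genes tested were 25.8% higher and 30% lower. By family, of the 8 Slc30a genes tested, with the ones above included, 1 was higher and 7 lower. Of the 13 Slc39a genes tested, 8 were higher, 4 lower and 1 not called. The median log2 fold change was -0.62 in the Slc30a and 0.86 in the Slc39a family. With other scalings, tools and filters, and without each mouse in turn, 6 or 7 Slc30a genes were called lower and 1 higher, and the Slc39a counts were 8 and 4. With at least 10 counts required in every sample, *Slc39a2* was not tested and *Slc39a3* was called higher instead (edgeR adjusted p = 0.00706).

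*Slc30a10*, which exports manganese, had the largest change of the transporter genes tested, from 48.9 ± 14.9 CPM in tdTom- to 4.36 ± 1.66 CPM in tdTom+ cells (SD, n = 8 each; log2 fold change -3.48 ± 0.12, SE; edgeR adjusted p = 1.91e-11). *Slc30a9* was also lower (log2 fold change -0.42). Higher in tdTom+ among the uptake family were *Slc39a8*, a zinc and manganese transporter, at 42.0 ± 8.76 against 11.04 ± 4.54 CPM (log2 fold change 1.97 ± 0.09, SE; edgeR adjusted p = 4.45e-10), and *Slc39a11*, at 114 ± 13.4 against 55.6 ± 5.83 CPM (log2 fold change 1.03 ± 0.05, SE; edgeR adjusted p = 7.15e-10). *Slc39a1*, *Slc39a2*, *Slc39a6*, *Slc39a10* and *Slc39a13* were higher as well, with log2 fold changes of 0.58, 1.51, 1.30, 1.26 and 1.44. *Slc39a2* rested on 3 to 61 reads per library. *Slc39a14*, which takes up zinc, iron and manganese, and *Slc39a9* were lower (log2 fold changes -1.20 and -0.57), and *Slc39a3* was not called (0.13 ± 0.07, SE; edgeR adjusted p = 0.125). *Slc30a3* and *Slc30a8* had at most 4 reads and 1 read in any library, and *Slc39a12* had none, where a count of 0 still allows up to 3 reads per library.

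Within the summed Slc39a level, the makeup differed between the fractions. *Slc39a5* took 14.8 ± 3.30% in tdTom+ and 32.9 ± 2.29% in tdTom- (SD, n = 8 each), and *Slc39a4* 25.2% and 30.1%. *Slc39a1* took 19.9% and 9.82%, and *Slc39a11* 16.2% and 5.86%. With *Slc39a7* taken over all its exons, the family summed to 208 ± 10.9 CPM per kb in tdTom+ and 285 ± 24.8 CPM per kb in tdTom-.

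**Figure D5:**
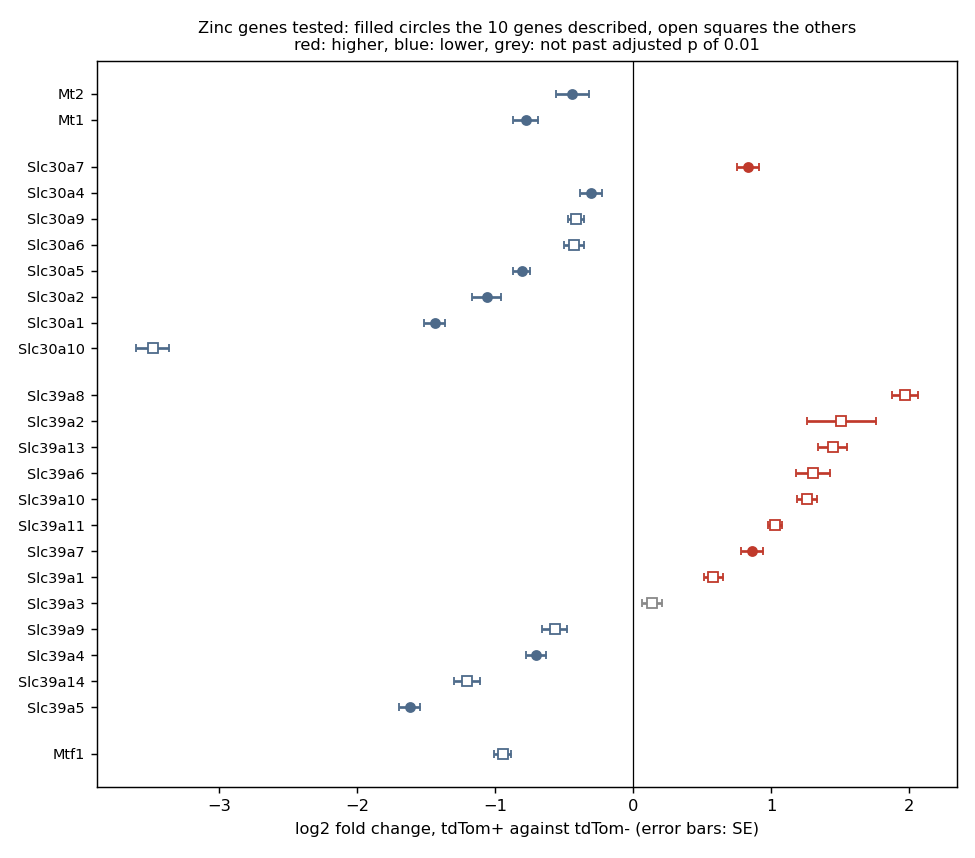
Log2 fold change of tdTom+ against tdTom- (horizontal axis, bars are SE, 8 mice) of the 10 genes (filled circles) and the 14 other zinc genes tested (open squares), by family, in red where higher, blue where lower and grey where not called. In the Slc30a family *Slc30a7* alone lies to the right of 0, and in the Slc39a family 8 called genes do.

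Zinc-dependent enzymes that pass through the secretory pathway receive their metal there. Of 18 such genes, all tested, 4 were higher, 11 lower and 3 not called (25.8% higher and 30% lower over all genes tested). The higher ones were *Mmp7*, the protease that processes Paneth cell defensins (842 ± 322 against 4.69 ± 1.19 CPM, SD, n = 8 each; log2 fold change 7.45), *Cpd* (1.76), *Mmp15* (1.72) and *Adam10* (0.23). The lower ones included brush border enzymes of absorptive cells, *Alpi* (intestinal alkaline phosphatase, log2 fold change -3.21), *Anpep* (-2.70), *Ace* (-3.36), *Mme* (-3.02) and *Dpep1* (-3.20). *Mmp7* and *Alpi* are also among the cell type markers above. *Adam10* and *Adam17* (log2 fold change -0.18) were near the threshold, and each lost its call under several alternatives.

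By likeness of pattern, measured as the root mean square difference of log2 CPM about each gene's mean over the 16 libraries, 8940 genes with at least 10 CPM were compared. Nearest to *Slc30a2* were *Ncoa7* (0.115), *Sphk2* (0.134), *Fam53b* (0.139), *Nr3c1* (0.142) and *Agpat3* (0.144). Nearest to *Slc39a4* were *Stx12* (0.0723), *Fam8a1* (0.0802), *Ubap1* (0.0819), *Arf5* (0.0865) and *Dlg3* (0.0867). *Mt1* had no neighbour as close. Its nearest were *Mcrip2* (0.358), *Ppp1r1b* (0.364), *Pgk1-rs7* (0.365), *Ldha-ps2* (0.366) and *Pgk1* (0.368), where *Pgk1-rs7* and *Ldha-ps2* are copies that may share reads with *Pgk1* and *Ldha*. *Mt2* itself, below the 10 CPM limit, was at 0.464.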

How the data were processed

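The authors aligned 50-base single-end reads of stranded mRNA libraries to GRCm38 (GRCm38.p3 per the labels) with TopHat2 (2.1.1 per the labels). Per the file headers, the authors then counted primary alignments per Ensembl gene, on the reverse strand, using version 1.5.0-p1 of featureCounts. The deposited values are raw, unscaled counts, and a read that falls on several overlapping genes was given to none. Symbols came from GENCODE M21 and matched 44671 of 45513 genes. Coordinates are those of the files (GRCm38, 1-based).

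In R 4.3.3, genes were kept by filterByExpr of edgeR 4.0.16, scaled by TMM and tested by the quasi-likelihood F-test with the mouse as a block, with Benjamini-Hochberg adjustment over 15323 genes and a threshold of 0.01. SE is the log2 fold change divided by the square root of F. The steps were checked on simulated data. The pairing comes from the replicate number in the titles and the series design, which says that each animal gave both fractions. Deviations from the fraction means correlated within a number (mean r 0.426, 0.245 to 0.634 over 8 pairs). Between numbers the mean r was -0.0569, a value that the centring on those means largely sets. For all 8 tdTom- libraries the best match was the tdTom+ library of the same number. Relations between genes used exact permutation tests of log2 CPM (prior count 2). Precision is limited by 8 mice and, for *Mt2*, *Slc30a1* and *Slc39a7*, by counts. Alternatives were other scalings (relative log expression, total counts, TMM without the 10 most counted genes), DESeq2 1.42.0, limma-voom (limma 3.58.1), other filters and thresholds, thinning, no replicate block and leaving out each mouse. The 10 genes, the gene lists and the tests were chosen with earlier results of these data known. Genes named are the 10, genes of the other zinc and zinc enzyme lists (1 of which is not reported here), *Atoh1*, the cell type markers and, for *Mt1*, *Slc30a2* and *Slc39a4*, the 5 nearest profiles. Marker lists held 8 genes for each of Paneth, goblet, enteroendocrine, tuft, absorptive, stem, proliferating, immune, stromal and pancreatic acinar cells and for the dissociation response. Those not described with the results were higher for 8 of 8 enteroendocrine, 6 of 6 tuft, 3 of 8 stem and 1 of 3 stromal markers tested, with none lower, none called of 8 proliferation markers, and no pancreatic acinar marker past the filter. Promoter windows came from RefSeq (GRCm38.p6).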

Additional observations from a re-analysis of the deposited data

Results flagged for a closer look

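In tdTom+ cells *Slc39a7* in mouse 7 stood apart from the other 7 mice. It was at 13.0 CPM (260 reads), above 9.34 to 10.4 CPM in the others, a gap of 0.664 of the whole range on the log2 scale, past Dixon's limit for 8 values. Of 22 sets of 8 values examined, this was the 1 set past the limit, and 1.1 are expected by chance. The same library was at the end of several marker lists among the tdTom+ libraries. It had the highest summed Paneth (139451 CPM), enteroendocrine (3143 CPM), immune (3467 CPM), stromal (45.8 CPM) and dissociation response markers (4218 CPM). It also had the lowest goblet (128104 CPM) and absorptive markers (1563 CPM). *Lyz2* and *Vim*, at up to 3459 and 41.7 CPM in tdTom+, made up most of the immune and stromal sums. Those sums therefore give no count of immune or stromal cells. The part of these marker levels in the *Slc39a7* value was not tested.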

How the results depend on the processing

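No direction of the 10 genes changed under another scaling, tool, filter, thinning or without any mouse, and 8 of them kept their call throughout. *Mt2* and *Slc30a4* lost theirs without the replicate block (log2 fold changes -0.47 and -0.31, edgeR adjusted p = 0.263 and 0.0139), with DESeq2 and no block (adjusted p = 0.275 and 0.0225), with at least 10 counts in every sample (log2 fold changes -0.32 and -0.19, edgeR adjusted p = 0.0317 and 0.0572) and without single mice as given with the results. The replicate block changed no other call among the 10. A minimum size of 1 for the log2 fold change left 3498 genes called, 0 of the 10 higher, 3 of the 10 lower and 2 of the other zinc genes lower, by its own construction. In CPM without division by length the share of vesicle exporters differed by 12.96 percentage points (58.4% against 45.4%), and with *Slc39a7* per unshared exon on the uptake side by 4.53, an alternative chosen after seeing the data. Leaving out the 2 mice farthest from the median moved r to 0.855 and 0.575 for *Mt1* with *Mt2* in tdTom+ and tdTom-, to -0.354 for *Slc30a2* with the Paneth markers and to 0.796 for *Slc39a4* with the absorptive markers, and with each mouse left out in turn the r of *Slc30a2* ranged from -0.0746 (without mouse 7) to 0.521. The cause was not tested. The median over all genes shifted to 0.12 with at least 10 counts in every sample and without mouse 3. Low counts limit *Mt2*, *Mt3*, *Slc39a2* and *Slc39a7*.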
